A study of Mus musculus with 58 samples.

Results

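The pyruvate dehydrogenase complex and its regulatory enzymes were followed through 10 genes, taken as the entries of the deposited count table with the symbols Pdk1, Pdk2, Pdk3, Pdk4, Pdp1, Pdp2, Pdha1, Pdhb, Dlat and Pdhx, out of 52459 gene symbols listed. The table holds total RNA sequencing of mouse retina from 58 libraries. The control group (30 libraries) came from C57/BL/6 males without hyperglycemia, and the diabetic group (28 libraries) from male littermates heterozygous for Ins2Akita with hyperglycemia. Ins2Akita is a dominant mutation of an insulin gene, which is expressed mainly by the beta cells of the pancreas. Both groups were bred from Ins2Akita males and C57/BL/6 females, were kept from birth in 12 h of light and 12 h of dark with free access to food, and were 4 months old. They were killed at Zeitgeber time (ZT) 1, 5, 9, 13, 17 or 21, counted in hours from lights on, perfused with cold phosphate-buffered saline, and dissected under dim red light at night. From ZT1 to ZT21 there were 5, 6, 5, 5, 5 and 4 control and 5, 5, 5, 4, 4 and 5 diabetic libraries, described as biological replicates.

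The pyruvate dehydrogenase complex sits in the mitochondrial matrix and converts pyruvate, the end product of glycolysis, to acetyl-CoA, which commits glucose carbon to oxidation. Pyruvate dehydrogenase kinases phosphorylate its E1 alpha subunit and switch the complex off, whereas pyruvate dehydrogenase phosphatases remove the phosphate and switch it on again. Photoreceptors are known for sending most of their glucose to lactate even with oxygen present, and the kinases are known transcriptional targets of the hypoxia factor HIF1 (Pdk1) and of PPAR and FOXO factors in fasting and diabetes (Pdk4).

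Counted reads per library ranged from 7773117 to 22147398, and 19120 genes with a median above 4 normalized counts (counts divided by a size factor for depth) were tested, all 10 members among them. Summed markers of rods, led by rhodopsin, ranged from 487197 to 745139 normalized counts per library, and those of cones, bipolar, amacrine and ganglion cells and of Muller glia were detected in every library. Lens markers reached 43206, 28643 and 33064 normalized counts in single control libraries of ZT1, ZT17 and ZT21, against at most 926 in diabetic libraries, and 2 of the 6, Lim2 and Mip, had a median of 0. The control calls of Pdk1 given below held with each of those libraries left out. The p-values measure the spread between these samples. In whole retina, fewer cells of a type and less RNA per cell cannot be told apart.

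In the GRCm38 annotation the kinase genes are Pdk1 at chr2:71873224-71903858, Pdk2 at chr11:95026258-95041354, Pdk3 at chrX:93764607-93832201 and Pdk4 at chr6:5483351-5496309. The phosphatase genes are Pdp1 at chr4:11958184-11966452 and Pdp2 at chr8:104591451-104599026. The subunit genes are Pdha1 at chrX:160122209-160138413, Pdhb at chr14:8165996-8173025, Dlat at chr9:50634633-50659780 and Pdhx at chr2:103021075-103073513.

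Promoter windows are shown for Pdk1, the kinase that differed between night and day, for Pdk2, the kinase with the highest level per length, and for Pdp2, the phosphatase called rhythmic. Each is the stretch of 250 bases before the RefSeq transcript start (GRCm38.p6), written 5′ to 3′ on the gene's own strand, with the hypoxia response element cores ACGTG and GCGTG (searched on both strands) in capitals. The Pdk1 window is chr2:71872974-71873223 (plus strand), the Pdk2 window chr11:95041372-95041621 (minus strand) and the Pdp2 window chr8:104591222-104591471 (plus strand).
Pdk1: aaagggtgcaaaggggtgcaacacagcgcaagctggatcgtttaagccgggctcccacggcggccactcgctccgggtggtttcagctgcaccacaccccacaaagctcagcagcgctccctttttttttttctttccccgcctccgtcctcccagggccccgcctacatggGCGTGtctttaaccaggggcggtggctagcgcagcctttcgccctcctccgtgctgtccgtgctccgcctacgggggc
Pdk2: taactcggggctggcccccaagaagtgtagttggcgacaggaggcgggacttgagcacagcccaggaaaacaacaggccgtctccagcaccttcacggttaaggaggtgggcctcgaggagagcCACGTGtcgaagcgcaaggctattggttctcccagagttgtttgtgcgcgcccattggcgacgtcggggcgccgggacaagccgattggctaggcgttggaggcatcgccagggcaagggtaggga
Pdp2: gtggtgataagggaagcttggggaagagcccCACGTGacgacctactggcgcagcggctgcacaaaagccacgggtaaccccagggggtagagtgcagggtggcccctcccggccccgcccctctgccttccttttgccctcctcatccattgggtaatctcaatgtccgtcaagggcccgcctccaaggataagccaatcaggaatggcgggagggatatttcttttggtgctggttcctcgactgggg
The Pdk1 window held 1 GCGTG, beginning 78 bases before the start. In the Pdk2 and Pdp2 windows the ACGTG core lay inside CACGTG, the E-box of clock factors, which reads the same on both strands, so that 1 E-box counts as a core on each. Of the 9 members with an entry (Pdp1 had none), 8 held ACGTG or GCGTG, against 38.6% of all 32851 promoter windows of this length, and 2 held CACGTG, against 6.02%. The members' windows were 58.8% to 68.4% G and C, against a median of 52.4% over all windows, and none of the 9 held the nuclear receptor half-site AGGTCA (14.02% of all windows) or the FOXO motif TGTTTAC (3.17%), both searched on both strands. These letters are a description of the windows and say nothing of binding.

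Levels were compared between genes as normalized counts per kb of exon, because longer transcripts collect more reads. The E1 subunits stood at the top, with Pdha1 (E1 alpha, which carries the phosphorylation sites) at 285 ± 21.8 normalized counts per kb and Pdhb (E1 beta) at 268 ± 19.8 (SD, n = 58). Pdk2, a kinase of the complex, reached 262 ± 42.2, and Dlat, the E2 core that hands acetyl groups to coenzyme A, 177 ± 11.8. Pdk3 followed at 164 ± 15.7, then Pdp2 at 130.2 ± 9.15, Pdp1 at 109.9 ± 11.2, Pdhx (the E3-binding protein) at 105 ± 7.40 and Pdk1 at 103 ± 14.7. Pdk4 lay far below the others, at 1.88 ± 0.856.

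Neighbours in this order often overlapped. Pdha1 exceeded Pdhb in 43 of 58 libraries, Pdhb exceeded Pdk2 in 37, Pdp1 exceeded Pdhx in 39, and Pdhx exceeded Pdk1 in 27, so that the order within these pairs varied between libraries. Dlat was above Pdk3 in 50, and Pdk3 above Pdp2 and Pdp2 above Pdp1 in 54 each. In contrast, Pdk2 was above Dlat in 58 of 58 libraries, and Pdk1 was above Pdk4 in 58 of 58, with a median ratio of 57.4. With the longest transcript in place of all exons, Pdhb (436) stood above Pdha1 (374), and Pdk1 stood at 155 normalized counts per kb in place of 103. Pdk1 and Pdhx (164) then stood above both phosphatases, Pdp2 (130) and Pdp1 (118). Of the summed kinase transcripts per kb, Pdk2 made up 49.1% ± 4.78, Pdk3 31.1% ± 3.51, Pdk1 19.4% ± 2.21 and Pdk4 0.354% ± 0.158 (SD, n = 58). By group, the share of Pdk1 ran from 18.2% ± 1.95 (control ZT9) to 21.6% ± 0.491 (control ZT21) and in diabetic retinas from 18.1% ± 1.39 (ZT1) to 21.4% ± 3.84 (ZT13), and Pdk2 held the largest share in every group. The testis form of E1 alpha, Pdha2, had 0 reads in all libraries.

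**Figure D1:**
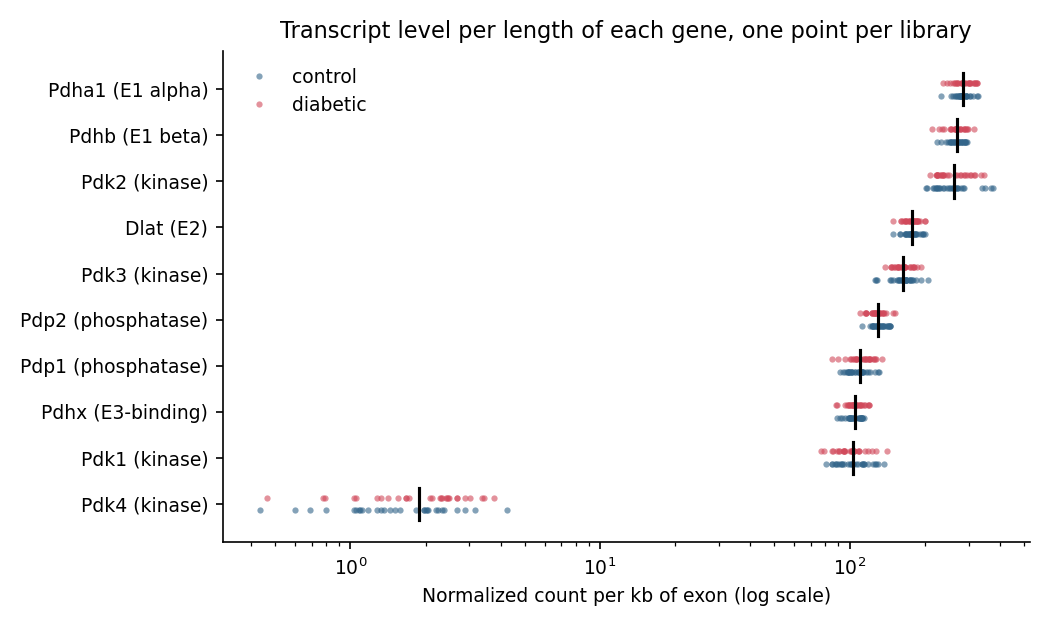
Normalized count per kb of exon (log scale) of the 10 genes in each of 58 libraries, control below and diabetic above in each row, with the mean of all libraries as a vertical bar. E1 subunits and Pdk2 lie between 203 and 376, and Pdk4 between 0.433 and 4.26.

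The members also differed in how much they varied. Over all libraries the coefficient of variation was 14.3% for Pdk1 and 16.1% for Pdk2, against 6.64% to 7.65% for the 4 subunits and 7.02% for Pdp2. Within the 12 groups of genotype and time it was 10.2% for Pdk1 and 15.8% for Pdk2. The highest group mean of Pdk1 was 1.42 times the lowest, and that of Pdk2 1.26 times, although Pdk2 varied as much within groups as over all libraries. For Dlat and Pdhx the group means spanned 1.09-fold each.

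Pdk1, the kinase known as a HIF1 target, was lowest in the light and highest late at night in control retinas. The libraries at ZT9 had 627, 661, 681, 721 and 728 normalized counts. At ZT21 the 4 libraries had 872, 963, 989.7 and 1069, all above every library of ZT5 (lowest 663, median 714, highest 765) and of ZT9. The ZT17 libraries, at 785, 803, 887, 986 and 1013, were likewise above every ZT5 library. Dusk and dawn lay between, with 778 to 887 at ZT13 and 692 to 920.3 at ZT1. Group means were 828 ± 87.2, 714 ± 37.4, 684 ± 42.3, 832 ± 46.7, 895 ± 103 and 974 ± 81.3 (SD) from ZT1 to ZT21.

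In diabetic retinas Pdk1 had its highest mean at ZT13. The 4 libraries there had 797, 846, 894 and 1103 normalized counts, against 738, 792, 792 and 992 at ZT17. At ZT21 the 5 libraries had 807, 812, 838, 846 and 958, all but the highest below the lowest control library of that time. At ZT1 they had 613, 665, 735, 741 and 742, all 5 below 4 of the 5 control libraries. At ZT5 they had 691 to 798, much as in control, and at ZT9 they were spread from 599 to 919, beyond the control range on both sides. Means were 699 ± 57.96, 736 ± 49.2, 746 ± 125, 909.97 ± 135, 828.6 ± 112 and 852 ± 61.6 from ZT1 to ZT21.

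**Figure D2:**
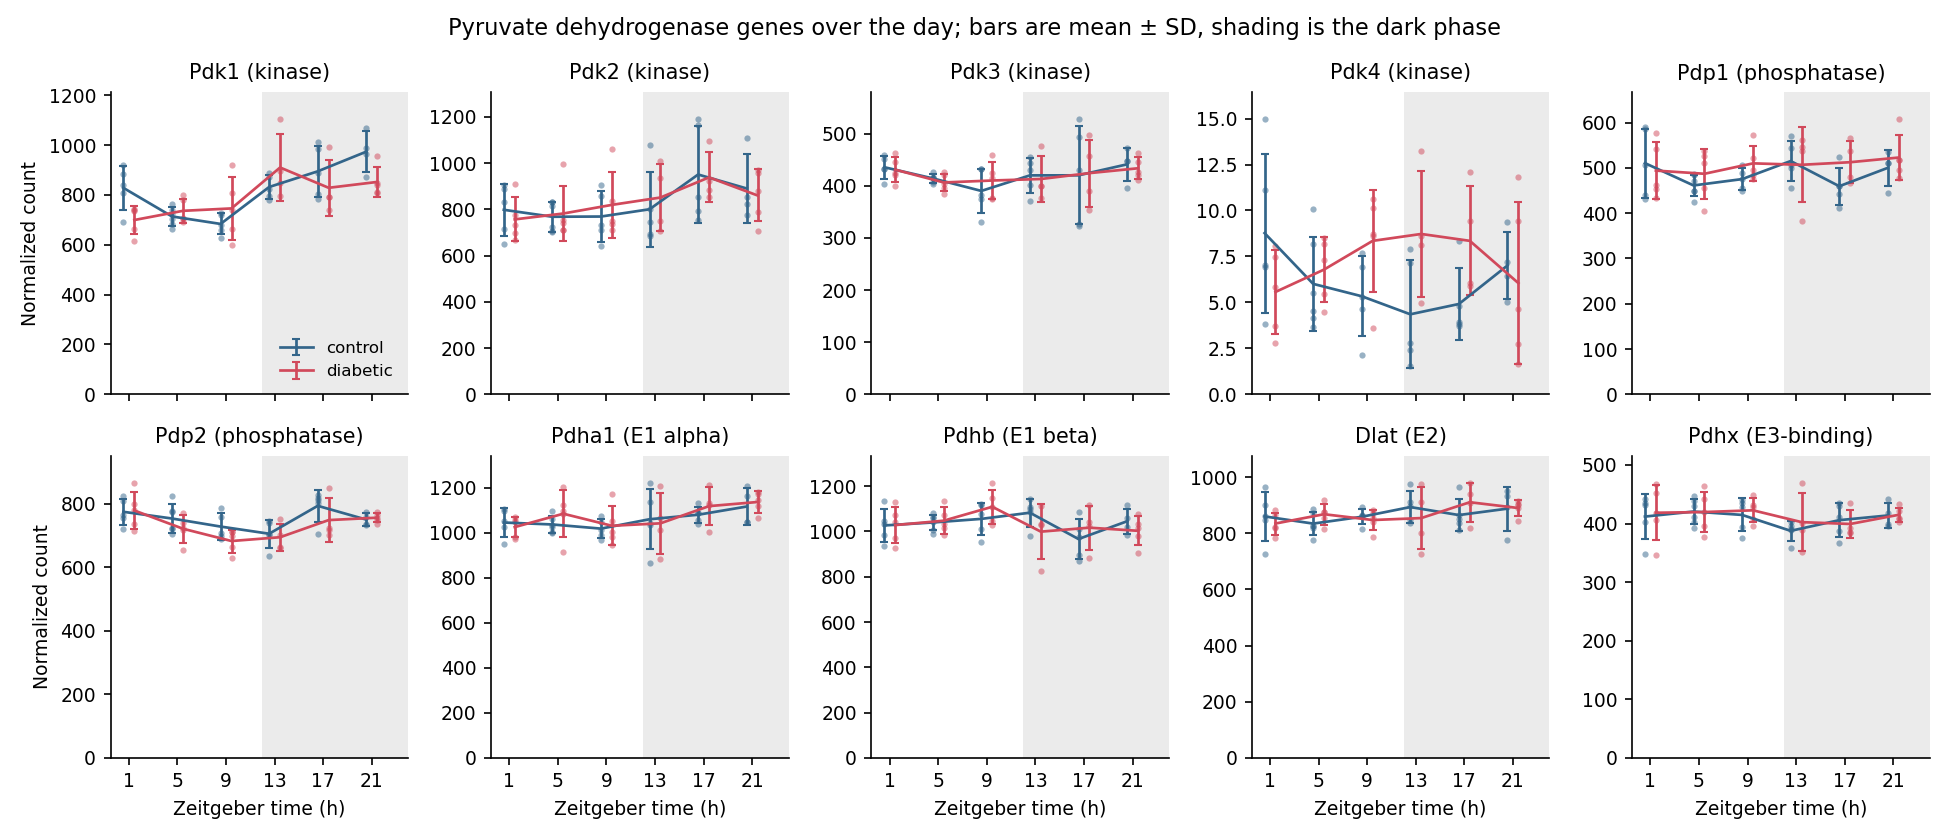
Normalized counts of the 10 genes against Zeitgeber time (h) in control (blue) and diabetic (red) libraries, with points for libraries, lines and bars for mean ± SD, and shading for the dark phase. The highest mean of Pdk1 stands at ZT21 in control and at ZT13 in diabetic retinas, and group means of the 4 subunits span 1.09-fold to 1.15-fold.

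Midnight was compared with midday by the edgeR quasi-likelihood test on all 12 groups. In control retinas, 2884 of 19120 genes passed an adjusted p of 0.05 (15.1%), and of the 10 members only Pdk1 did (at an unadjusted p of 0.05, 30.9% of genes and 2 members, Pdk1 and Pdk2). It was higher at ZT17 than at ZT5 by 0.32 ± 0.09 on the log2 scale (SE, 1.247-fold, adjusted p = 0.00863). In diabetic retinas 7.36% of genes passed and no member did (at an unadjusted p of 0.05, 21.3% of genes and 0 members), with Pdk1 at 0.16 ± 0.09 (95% interval -0.03 to 0.35, adjusted p = 0.328). The difference between the genotypes in this change was -0.16 ± 0.13 for Pdk1 (95% interval -0.41 to 0.10, unadjusted p = 0.224, adjusted p = 1.00), so the 2 changes were not shown to differ. By that test 0 of 19120 genes passed (3.83% at an unadjusted p of 0.05), and it was added after the data were seen.

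Pdk2 had a nearly equal estimate that did not pass the test. Its difference between ZT17 and ZT5 was 0.30 ± 0.13 in control (adjusted p = 0.0931) and 0.25 ± 0.14 in diabetic retinas (adjusted p = 0.287). The 5 control libraries of ZT17 had 755.5, 792, 854, 1162 and 1188 normalized counts, against a lowest of 702, a median of 767 and a highest of 834 at ZT5. The 2 highest libraries lay apart, 1 lay just above the ZT5 range, and the other 2 lay inside it. Diabetic libraries had 852, 885, 920.2 and 1095 at ZT17 and 709, 711, 739, 754 and 995 at ZT5, overlapping through the highest of ZT5. In control, Pdk2 passed without ZT17 replicate 2 (0.36, adjusted p = 0.0468) or replicate 5 (0.37, adjusted p = 0.0434). The other 8 members had log2 differences between -0.29 (Pdk4) and 0.07 (Pdp2) in control and between -0.08 (Pdhx) and 0.30 (Pdk4) in diabetic retinas. For control and diabetic retinas the median over the 10 members was 0.03 and 0.06, and over all genes -0.03 and -0.01.

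**Figure D3:**
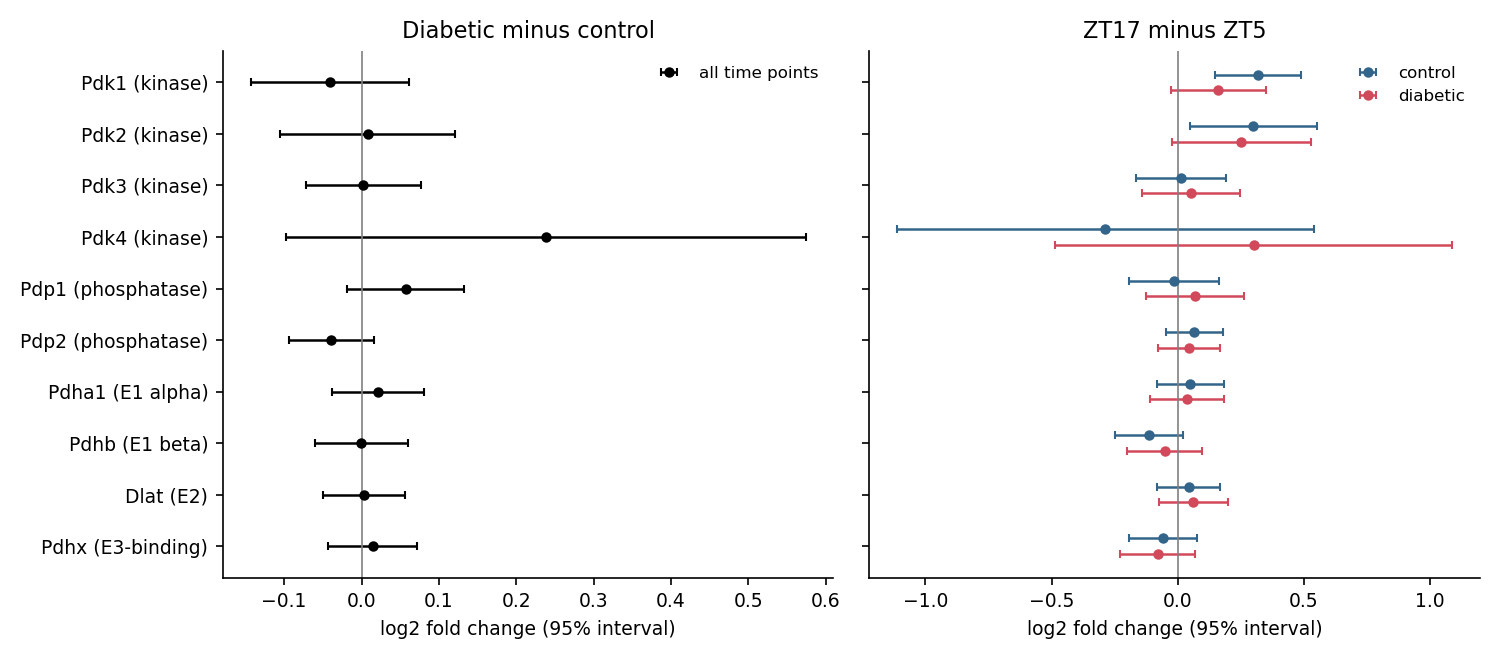
Log2 fold changes of the 10 genes with 95% intervals, diabetic minus control over all time points (left) and ZT17 minus ZT5 in control (blue) and diabetic (red) retinas (right). The interval of Pdk1 at ZT17 against ZT5 in control lies above 0, from 0.15 to 0.49, and the intervals of Pdk4 are the widest.

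Whether a transcript cycled over the day was asked within each genotype with a JTK permutation test for a 24-h pattern (unadjusted p under 0.05 and the highest library at least 25% above the lowest), and its peak time, the acrophase, was read from a fitted cosine. This rule called 21.8% of genes in control and 23.9% in diabetic retinas, and 2 of 10 members in each, Pdk1 and Pdp2. With adjusted p-values it called 8.23% and 9.8% of genes and 1 member each, Pdk1 in control and Pdp2 in diabetic retinas. In both genotypes 11.9% of genes were rhythmic. In control retinas Pdk1 had a permutation p = 1e-06, the smallest value that 1000000 shuffles can give (adjusted p = 0.000199), an acrophase at ZT19.5 ± 0.504 h and an amplitude of 16.5% ± 2.20 of its mean level (SE). In diabetic retinas it had a permutation p = 0.0277 (adjusted p = 0.145), an acrophase at ZT15.8 ± 1.08 h and an amplitude of 11.3% ± 3.29. Without the diabetic ZT17 replicate 1 the p was 0.0519, and without all diabetic libraries of ZT1, ZT5 or ZT13 it was 0.0723, 0.0627 and 0.0686, whereas the control call held without any 1 library and any 1 time point.

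The acrophase of Pdk1 differed by -3.64 ± 1.19 h (SE) between diabetic and control retinas, the diabetic peak being the earlier, and by -4.22 to -2.96 h with any 1 library left out. A test of the difference in rhythm between genotypes (edgeR, genotype by cosine and sine) gave an unadjusted p of 0.00257 for Pdk1, where 3.44% of genes fell under 0.05, and an adjusted p of 1.00. No gene passed in that test (0 of 19120, also 0 by DESeq2), and limma with robust regression gave Pdk1 an adjusted p of 0.182. Over the 6469 genes rhythmic in either genotype the adjusted p was 0.449. Among the 2268 genes rhythmic in both genotypes, 1602 peaked earlier in diabetic retinas, with a median difference of -0.63 h, and 50 (2.20%) had a peak earlier by at least as much as Pdk1. The difference in acrophase of Pdk1 is therefore an estimate that did not pass correction over all genes.

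**Figure D4:**
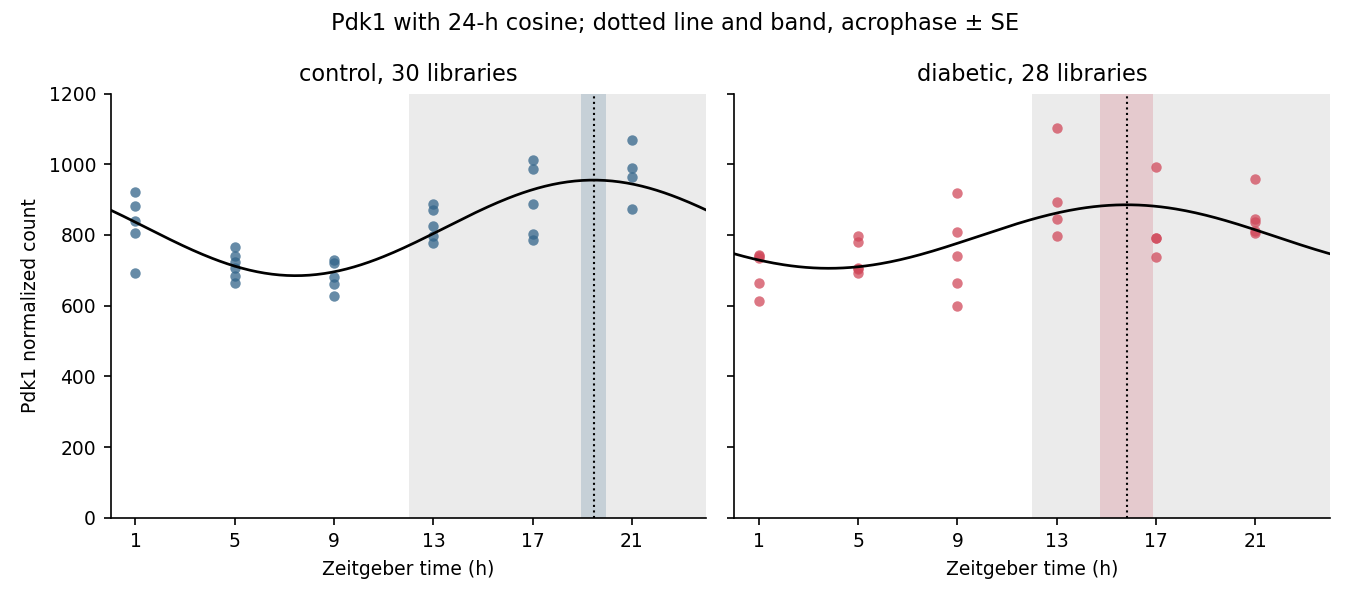
Normalized counts of Pdk1 against Zeitgeber time (h) in 30 control and 28 diabetic libraries (points), with the fitted 24-h cosine (line), its acrophase (dotted) ± SE (band) and the dark phase (grey). The peak stands at ZT19.5 in control and at ZT15.8 in diabetic retinas.

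Marker genes of other cells differed with the time of day too. Summed markers of the retinal pigment epithelium (7 of 7 detected), a layer behind the retina that can adhere to it on dissection, had group medians of 1014, 1130.1, 2499.7, 2571, 2402 and 3096 normalized counts in control and of 971, 488, 1687, 2858, 1966 and 3218 in diabetic retinas from ZT1 to ZT21. Their part in the Pdk1 difference was not tested. Summed markers of Muller glia (6 of 6 detected) had medians of 43792 at ZT5 and 51969 at ZT17 in control and of 44652 and 51170.3 in diabetic retinas, and 2 of the 6 rose in control and 0 in diabetic retinas. Of 6 bipolar cell markers, 5 rose from ZT5 to ZT17 in control and 2 in diabetic retinas, where 15.1% and 7.36% of all genes passed in either direction. Of 6 rod markers, Sag was lower at ZT17, by log2 differences of -0.21 in control and -0.42 in diabetic retinas. Of 5 cone markers, Arr3 was lower in both (-0.45 and -0.44) and Pde6h in control (-0.20). Some markers also differed between genotypes over all time points by edgeR, where 2.99% of all genes passed. The cone markers Pde6h (-0.14, adjusted p = 0.00173) and Gnat2 (-0.12, adjusted p = 0.00760) were lower in diabetic retinas. So were Cx3cr1 of microglia (-0.23, adjusted p = 0.0448) and Cryaa of lens (-5.01, adjusted p = 0.00097). The part of these markers was not tested either.

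Pdk2, the broadly expressed kinase with the highest level per length here, had a fitted peak at night in both genotypes that the JTK rule did not call (permutation p = 0.195 in control and 0.121 in diabetic retinas). Its cosine peaked at ZT18.6 ± 1.52 h in control and ZT16.1 ± 1.54 h in diabetic retinas, with amplitudes of 10.6% ± 4.15 and 9.10% ± 3.79. The edgeR cosine test, by which 25.0% and 26.3% of genes had an unadjusted p under 0.05 and the same fold, gave Pdk2 unadjusted p-values of 0.0277 and 0.0419. Pdk3, which is encoded on the X chromosome, was flatter still, with group means from 390.1 to 441 normalized counts and JTK p-values of 0.224 and 0.334.

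Pdk4, the kinase that fasting and insulin lack induce in muscle and liver, was barely detected, at 1 to 18 reads per library. Control libraries had a lowest of 1.52, a median of 5.42 and a highest of 14.95 normalized counts, and diabetic libraries 1.63, 7.76 and 13.2. The ranges of the genotypes overlapped almost wholly. The log2 difference between diabetic and control was 0.24 ± 0.17 (95% interval -0.10 to 0.57, adjusted p = 0.5497), an interval that reached from 0.934-fold to 1.49-fold. Its fitted peak was at ZT0.555 in control and ZT12.5 in diabetic retinas, neither called as rhythmic (permutation p = 0.123 and 0.172). In the cosine test of edgeR over all genes its unadjusted p was 0.0332 in control and 0.188 in diabetic retinas. The difference in rhythm had an unadjusted p of 0.00791 and an adjusted p of 1.00. The median was 6 reads a library, and single reads weigh on these peak times.

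Of the phosphatases, Pdp2, a less calcium-dependent enzyme than Pdp1, was called rhythmic in both genotypes, with a permutation p = 0.0447 and an amplitude of 3.80% ± 1.62 in control, and p = 0.00146 (adjusted p = 0.0227) and 6.30% ± 1.63 in diabetic retinas. Its fitted peaks lay close together, at ZT22.2 ± 1.54 h and ZT22.5 ± 1.01 h, and the difference in rhythm had an unadjusted p of 0.590. Diabetic libraries of ZT9 had 628, 664, 699, 711 and 711 normalized counts, and those of ZT21 had 737, 748, 755, 765 and 774.5, above every ZT9 library. In control retinas the ZT13 libraries had 636, 701, 706, 739 and 746 and the ZT17 libraries 704, 803, 813, 819 and 828.6, which overlapped through a single low library. The control call of Pdp2 was lost in 15 of 30 refits without 1 library and with TMM scaling (permutation p = 0.0656), as well as without all libraries of any 1 time point but ZT21. The cosine test of edgeR gave an unadjusted p of 0.132 for Pdp2 in control and of 0.00871 in diabetic retinas. The diabetic call held in 28 of 28 refits without 1 library. It was lost when the fold was taken between time point means (1.14-fold) and with time as 6 levels in edgeR (unadjusted p = 0.0632). Pdp1, the calcium-activated phosphatase, was not called (permutation p = 0.596 and 0.784), with group means from 460 to 523.

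The subunits, E1, E2 and E3-binding protein, varied little over the day. Group means of Pdha1 ranged from 1019 to 1137 normalized counts, those of Pdhb from 967 to 1109, those of Dlat from 835 to 911, and those of Pdhx from 388 to 423. None of these 4 was called rhythmic in either genotype, with JTK p-values from 0.0956 (Pdha1 in control) to 0.581 (Pdhx in diabetic), and fitted amplitudes lay between 2.41% and 3.93% of the mean. Reads of Pdha1 may include some of Map3k15, which overlaps 16.1% of its exon length on the opposite strand but had a mean of 18.03 reads, and 12.9% of Pdha1 and 11.4% of Pdhb windows of 50 bases also occur in other genes, so that their counts are less certain than those of the other members. The strand setting of the counting is not given in the sources used here.

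The effect of diabetes was tested over all time points and at each of them. Over all time points, 572 of 19120 genes passed an adjusted p of 0.05 (2.99%), and 0 of the 10 members did, by edgeR as by DESeq2. At an unadjusted p of 0.05, 15.5% of genes and 0 of 10 members passed. For the kinases, the diabetic minus control difference on the log2 scale was -0.04 ± 0.05 for Pdk1, 0.01 ± 0.06 for Pdk2 and 0.00 ± 0.04 for Pdk3. For the phosphatases it was 0.06 ± 0.04 for Pdp1 and -0.04 ± 0.03 for Pdp2. For the subunits it was 0.02 ± 0.03 for Pdha1, 0.00 ± 0.03 for Pdhb, 0.00 ± 0.03 for Dlat and 0.01 ± 0.03 for Pdhx. The 95% intervals of the 9 members other than Pdk4 all lay between -0.14 and 0.13, that is within 0.905-fold and 1.096-fold, and the median over the members was 0.01 against 0.00 over all genes.

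At single time points no member passed either, with edgeR or with DESeq2. In order from ZT1 to ZT21, the share of all genes that passed was 0.0105%, 0.0209%, 0.00523%, 0%, 0.167% and 0%. At an unadjusted p of 0.05 the shares were 5.50%, 6.15%, 4.49%, 4.46%, 8.82% and 4.67% in the same order, and Pdk1 was the 1 member under it at ZT1 and again at ZT21, with 0 members elsewhere. At ZT1, Pdk1 was lower in diabetic retinas by an estimated 0.848-fold, a log2 difference of -0.24 ± 0.09 (unadjusted p = 0.0105, adjusted p = 0.703). At ZT21 the log2 difference was -0.20 ± 0.09 (unadjusted p = 0.0389, adjusted p = 1.00), and at ZT9 and ZT13 the estimates had the other sign, at 0.12 ± 0.09 and 0.13 ± 0.10. At ZT13 and ZT17, Pdk4 had the largest estimates of any member, at 0.90 ± 0.46 and 0.75 ± 0.40, neither of which passed. Its estimates were also positive at ZT5 (0.16) and ZT9 (0.61) but negative at ZT1 (-0.59 ± 0.40) and ZT21 (-0.18 ± 0.41).

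The remaining components of the pathway were read from lists of its neighbours. Dld, the E3 subunit that the complex shares with its sister complexes, had the highest level per length (318 ± 39.6 normalized counts per kb) and was not called in any comparison. Pdpr, the regulatory subunit that restrains Pdp1, fell by 0.21 on the log2 scale between ZT5 and ZT17 in diabetic retinas (SE 0.07, adjusted p = 0.0421) and had -0.14 ± 0.06 in control (adjusted p = 0.1105). It was rhythmic in diabetic retinas with an acrophase at ZT8.2 ± 1.06 h and had a permutation p = 0.0662 in control with a fitted peak at ZT8.07.

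Of 16 genes of pyruvate supply and use, 6 rose from ZT5 to ZT17 in control retinas, and 3 rose and 1 fell (Pdpr) in diabetic retinas, against 15.1% and 7.36% of all genes. Ldha, which turns pyruvate into lactate and so competes with the complex, rose by 0.48 ± 0.07 in control (adjusted p = 1.32e-06) and by 0.28 ± 0.08 in diabetic retinas (adjusted p = 0.0133). Slc16a3, a lactate exporter, rose by 1.14 ± 0.13 and 0.82 ± 0.14. Slc16a8, the lactate transporter of the pigment epithelium, rose by 1.08 ± 0.30 and 2.10 ± 0.37, and 4 of the 7 marker genes of that epithelium also rose in each genotype. In control Pkm, which makes pyruvate, rose by 0.42 ± 0.11, Acly, which splits exported citrate, by 0.25 ± 0.05, and Cs, which joins acetyl-CoA to oxaloacetate, by 0.22 ± 0.06. Ldha peaked at ZT19.0 ± 0.403 h in control and ZT16.7 ± 0.775 h in diabetic retinas. Its difference in rhythm (edgeR, genotype by cosine and sine) had an unadjusted p of 0.00187 and did not pass correction over all genes.

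Of 9 genes of the sister complexes for oxoglutarate, oxoadipate and branched-chain ketoacids, 1 passed between ZT17 and ZT5 in control (Dhtkd1, log2 difference -0.52 ± 0.13, adjusted p = 0.00542) and 0 in diabetic retinas, against 15.1% and 7.36% of all genes. Among the cofactor genes, Lias, which makes the lipoyl arm of Dlat, was lower at night in control retinas with a log2 difference of -0.30 ± 0.08 (adjusted p = 0.0065), and 0 of 10 tested passed in diabetic retinas. No gene of these lists passed between diabetic and control over all time points by edgeR, where 2.99% of all genes did.

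Known regulators of kinase transcription were measured as well. Of 15 tested, 6 were higher at ZT17 than at ZT5 in control and 2 in diabetic retinas, against 15.1% and 7.36% of all genes in either direction. Nr4a1, an immediate early nuclear receptor, rose by 1.24 ± 0.25 and 1.12 ± 0.28, and Epas1, the HIF2 alpha subunit, by 0.33 ± 0.08 and 0.34 ± 0.09. Hif1a, the HIF1 alpha subunit, did not pass between these time points in either genotype. It was not called rhythmic, with fitted amplitudes of 2.50% of its mean level in control and 2.29% in diabetic retinas. In control Ppard rose by 0.45 ± 0.14, and Foxo1, one of the FOXO factors, by 0.18 ± 0.06. Of 11 tested PPAR and fasting targets, Acadm and Cpt1a of fatty acid oxidation were lower at ZT17 in both genotypes, with log2 differences of -0.40 ± 0.07 and -0.30 ± 0.06 in control and of -0.32 ± 0.08 and -0.28 ± 0.07 in diabetic retinas. Angptl4, a lipase inhibitor, rose in diabetic retinas by 1.46 ± 0.40. Acot1, an acyl-CoA thioesterase, was the 1 gene of the lists of pyruvate, sister complex, cofactor, regulator, HIF1 and PPAR genes that passed between diabetic and control over all time points, higher by 0.44 ± 0.12 (adjusted p = 0.0229).

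The genes most like Pdk1 over the 12 group means, among 11233 genes with a mean of at least 100 normalized counts, were Bnip3 (Pearson r = 0.947), Pgk1 (0.945) and Egln1 (0.921), which share libraries and scaling with it. These 3 are on the list of 16 other HIF1 targets. For Pdk2 they were Vegfb (0.975), Ehd3 (0.969) and Trak1 (0.964), for Pdk3 Faf1 (0.878), Airn (0.864) and Rnf144b (0.852), and for Pdk4, at its low counts, Dbi (0.794), Pttg1ip (0.740) and Itgb1bp1 (0.737).

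These 16 HIF1 targets were set beside Pdk1. From ZT5 to ZT17, 10 rose in control and 8 in diabetic retinas, beside 15.1% and 7.36% of all genes that passed in either direction. The median log2 difference over the list was 0.49 and 0.41, respectively. Between diabetic and control, 0 of the 16 passed at any time point, where 0% to 0.167% of all genes did. Over all time points 0 of the 16 passed as well, beside 2.99% of all genes. Hk2, the hexokinase of photoreceptors, rose by 1.03 ± 0.09 and 1.09 ± 0.10, and Pfkl, of phosphofructokinase, by 0.64 ± 0.08 and 0.51 ± 0.09. In control 14 of 16 were rhythmic (21.8% of all genes), with acrophases from ZT17.0 to ZT20.7 and a median of ZT18.8, and in diabetic retinas 11 (23.9% of all genes), from ZT14.5 to ZT23.6 with a median of ZT16.9. Of the 11 rhythmic in both, 10 had an earlier fitted peak in diabetic retinas. The median difference was -1.90 h, against -0.63 h over all genes rhythmic in both. From these same libraries the study had already reported Hk2, Pfkl, Pfkp, Egln1, Slc2a1 (Glut1) and Pdk1 as advanced by several hours. The count of 10 of 11 and its median are therefore not independent of that report. The estimate for Pdk1 was larger than those of the 10 genes with an earlier peak. The next among them was Egln1, an oxygen sensor, at -2.55 ± 0.668 h (edgeR, unadjusted p = 0.000819, adjusted p = 0.738). Ndrg1, named here after its value was seen, had a later peak by 3.32 ± 2.37 h. For the genes of the list not rhythmic in both, the fitted differences were -5.32 ± 2.51 h (Ankrd37), -3.90 ± 1.67 h (Egln3), -3.42 ± 1.26 h (Eno1), 0.21 ± 2.79 h (Vegfa) and 0.40 ± 7.46 h (Adm). As for Pdk1, none of these differences in rhythm passed correction over all genes.

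**Figure D5:**
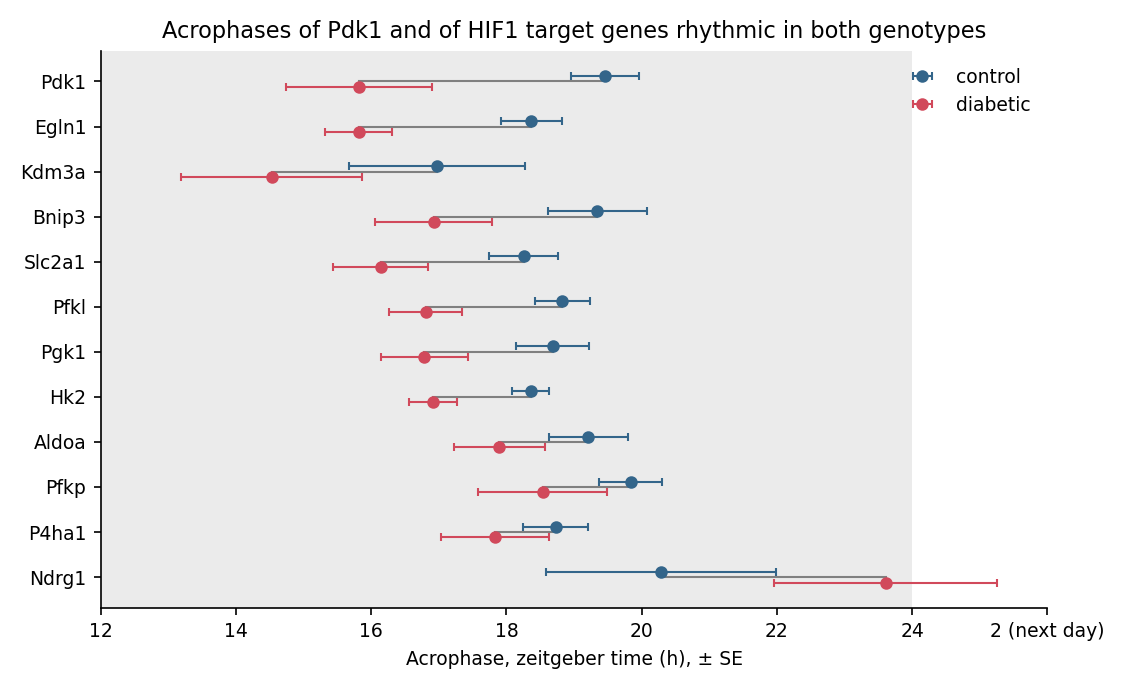
Acrophases (Zeitgeber time, h, ± SE) of Pdk1 and the 11 other HIF1 target genes rhythmic in both genotypes, control in blue and diabetic in red, in order of their difference. All but Ndrg1 lie earlier in diabetic retinas, with differences between -0.892 and -3.64 h.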

How the data were processed

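Total RNA of 58 retinas was depleted of ribosomal RNA and sequenced by the authors, who per the labels and methods aligned the reads with STAR 2.7.4a to GRCm38.p5 and counted reads per gene with HTSeq 0.11.1. The deposited values are raw counts per gene, and all columns were mapped to samples. The strand setting of the counting is not given in the sources used here. The labels also name DESeq2 1.26.0 and FastQC.

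Here, counts were scaled by DESeq2 size factors (levels, rhythms) or TMM factors (tests), and genes with a median above 4 normalized counts were kept. Genotype and time were tested with edgeR 4.0.16 (quasi-likelihood, R 4.3.3) in 1 fit of 12 groups, and genotype over all time points in a fit of 2 groups, with Benjamini-Hochberg adjustment over 19120 genes and a threshold of 0.05. DESeq2 1.42.0 and limma 3.58.1 were alternatives. Rhythms were tested with an empirical JTK test written for this work (Python 3.11.15, numpy 2.4.6), with a 24-h period, 6 phases, and 1000000 shuffles as the null, and acrophases were read from least-squares cosines with delta-method SEs. The study's package for differential rhythms was replaced by the interaction of genotype with cosine and sine in edgeR. The scripts were tested on simulated data. Exon lengths and positions are from Gencode M21, which matched 48082 of 52459 symbols.

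The members and gene lists were chosen with earlier results of these data known. All members, Dld and Pdpr are named, and from each list at most 4 genes per comparison that passed a test, by smallest p. For each kinase the 3 genes with the highest correlation are named. Cs, Ndrg1, Hif1a, Ankrd37, Egln3, Eno1, Vegfa and Adm are named beyond this, after their values were seen. Counts per library limit the precision, most of all for Pdk4. Some results of the gene lists are not reported here.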

Additional observations from a re-analysis of the deposited data

Results flagged for a closer look

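In 8 of 120 combinations of gene and group (10 genes in 12 groups), 1 library lay apart from the rest of its group by Dixon's test. Chance alone gives about 1 in 20. The genes share the same libraries, so these tests are not independent of each other. The highest value of its group stood apart for Pdk1 in diabetic ZT21 replicate 1 (958 normalized counts, next 846), for Pdk2 in diabetic ZT5 replicate 4 (995, next 754), for Pdk4 in control ZT17 replicate 4 (8.32, next 4.80), for Pdp2 in diabetic ZT17 replicate 3 (851, next 724) and for Pdhx in diabetic ZT17 replicate 1 (435, next 392). The lowest stood apart for Pdk4 in diabetic ZT9 replicate 5 (3.63, next 8.59), for Pdp1 in diabetic ZT13 replicate 5 (383, next 537) and for Pdp2 in control ZT17 replicate 4 (704, next 803).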

How the results depend on the processing

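No member passed between diabetic and control, over all time points or at any 1, under the alternatives run or in any of the 58 refits without 1 library, and the Pdk1 change between ZT5 and ZT17 in control passed in all of them. Counts of genes moved more. Over all time points 919 genes passed with time as a covariate. With DESeq2, the counts from ZT1 to ZT21 were 8, 24, 4, 1, 90 and 2. With each time point fitted alone, the counts were 0 at ZT1, 28 at ZT5, 5 at ZT9 and 0 at ZT17, and with no filter on low counts 1 at ZT1, 3 at ZT9 and 1 at ZT21. The difference in rhythm was passed by 3 genes with no filter and by 1 without all libraries of ZT1.

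Without 1 library, the genotype difference was passed from ZT1 to ZT21 by 0 to 4, 2 to 8, 0 to 2, 0 to 1, 3 to 96 and 0 to 1 genes. At ZT17 the lowest counts came without diabetic replicate 5 (3) and replicate 4 (15), and the highest without replicate 1 (96). ZT17 against ZT5 was passed by 1373 to 3718 genes and 1 to 2 members in control, lowest without ZT17 replicate 3, and by 882 to 1738 genes in diabetic retinas, lowest without ZT17 replicate 5. The difference in rhythm was passed by 0 to 1 genes, and 1 to 3 members were rhythmic in each genotype.

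Rhythmic members numbered 1 in control with adjusted p-values, the fold between time point means, TMM scaling, time as 6 levels in edgeR, and without ZT1, ZT5, ZT9, ZT13 or ZT17, and 1 in diabetic retinas with adjusted p-values, the fold between means, 6 levels, and without ZT1, ZT5 or ZT13. The cosine test of edgeR, with or without the replicate block, called 3 in each, Pdk1, Pdk2 and Pdk4 in control and Pdk1, Pdk2 and Pdp2 in diabetic retinas. Rhythmic genes numbered 1573 in control and 1874 in diabetic retinas with adjusted p-values, 2532 and 2710 with the fold between means, and 2528 in control without ZT17. With a replicate block, 10 genes passed at ZT5, 2 at ZT9 and 60 at ZT17, and 2 members at ZT17 against ZT5 in control, the second being Pdk2 (0.33, adjusted p = 0.0178). The replicate numbers were not taken as pairs, since the labels tie no number to a shared animal, litter or batch and 15 of 26 same-number pairs of a control and a diabetic library, not all, had a correlation above 0.1. The median correlation was 0.11 over these pairs and -0.03 over 114 other pairs, and 14 of 26 control libraries correlated best with their own number, a hint of pairing from the data and not from the design. The cause of these changes was not tested. Of estimates that were not called, 12 of 511 changed sign under alternative settings, with sizes of at most 0.02 on the log2 scale, and 164 of 5220 without 1 library, at most 0.10. Depth was lowest for Pdk4, at 1 to 18 reads per library.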
